A study of Mus musculus with 14 samples.

Results

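The Pax family comprises 9 mouse genes, Pax1 to Pax9, among the 22089 protein-coding genes of the annotation. Methylation at these genes was examined in 14 samples by MBD-seq, in which DNA fragments bound by a methyl-CpG binding domain protein are sequenced. A peak is a place where the mapped reads (tags) pile up above the local background of the same sample, and it was taken as a methylated region. Peaks were assigned to a Pax gene when they overlapped the gene or the 5 kb on either side of it, here called the window of the gene. By this rule 387 of the 1046653 peaks fell in Pax windows, and they merged into 84 of the 151119 regions that held a peak in at least 1 sample.

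The study asked whether Aid, a cytidine deaminase that has been proposed to take part in DNA demethylation, is needed when fibroblasts are reprogrammed to iPS cells. The 4 groups were Aid+/+ iPS clones (n = 4), Aid-/- iPS clones (n = 4), ES lines (n = 3) and embryonic fibroblasts (MEFs) of Aid+/+ genotype (n = 3). The iPS clones and MEFs carried a Nanog-GFP reporter on a mixed C57BL6, DBA and 129S4 background, the iPS clones (passage 6) were induced by retroviral Oct3/4, Klf4 and Sox2, in some cases together with c-Myc, and the MEFs were at passage 3. ES replicate 1 was the line RF8 (passage 19, strain 129SV in the labels but 129S4 in the methods of the study), replicate 2 was MG1.19 (129Ola) and replicate 3 was a C57BL6 line, so no strain of ES cells was sampled more than once. The iPS and ES cells were grown on gelatin, and each iPS sample was 1 clone. Clone names begin with 1 of 3 numbers, shared by Aid+/+ replicates 1 and 2, by Aid+/+ replicates 3 and 4 with Aid-/- replicates 1 and 2, and by Aid-/- replicates 3 and 4. The study compared clones by the integration pattern of retroviral Klf4 and listed no match between clones used here. Clones that share a number may still share an experiment, and in that sense may not be independent. Aid-/- MEFs were not analysed here. The Aid+/+ iPS clones were the reference for each other group, and MEFs were also compared with the iPS clones of both genotypes. The headers of the peak files differ in the form of their run names. No ES line or MEF shares a form with an Aid+/+ iPS clone, so group and form cannot be told apart in those comparisons. Aid+/+ replicates 2 to 4 have a form of their own, and only Aid+/+ replicate 1 shares a form with Aid-/- clones.

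Pax proteins are transcription factors that bind DNA through a paired domain, and some of them also carry a homeodomain. They act as early regulators of organs and lineages, and 4 subgroups are recognised from their sequence: Pax1 and Pax9; Pax2, Pax5 and Pax8; Pax3 and Pax7; and Pax4 and Pax6. In pluripotent cells most developmental regulators of this kind are silent, and CpG-rich starts of such genes are known for carrying little DNA methylation while silent. MBD-seq measures methylated DNA and gives no measure of transcription.

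The sequencing depth was 20124759 to 36919117 mapped tags per sample, of which 6654272 to 19603100 remained after repeated tags had been removed. The number of peaks differed between groups and between libraries. It was 68463 to 109417 in the 8 iPS clones, 35029 to 57020 in the MEFs, and 57964, 33082 and 105017 in the 3 ES lines. The MEF libraries had fewer peaks than any iPS clone although they had the most remaining tags (17513215 to 19603100), and this is a property of the whole libraries. A peak list names only what passed the threshold of the peak caller, so a window with no peak had no methylation detectable by this procedure, which does not show that its CpGs were unmethylated. The promoters of the pluripotency and fibroblast genes gave an incomplete check of the labels. A peak lay in the kilobase before the start of Nanog in 2 of 3 MEFs and in no iPS or ES sample. Before Pou5f1 a peak lay in 8 of 8 iPS clones but in no ES line or MEF. By pyrosequencing, however, the study found the Pou5f1 promoter hypomethylated in iPS cells of both genotypes. The Pou5f1 peaks differ from that result, and whether they cover the same CpGs was not tested. The other markers examined had a promoter peak in at most 1 sample, apart from Col1a1 with 9.

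Peaks in the Pax genes lay mostly inside the genes, which also make up most of the longer windows (180.302 of 190.302 kb in Pax5). No share over all genes is given beside the counts by segment, so they are not shown to be a trait of the family. Of the 387 peaks, 363 had their summit in the gene body, 16 in the downstream flank, 6 in the upstream flank and 2 in the promoter, here the 1 kb before the annotated start. The 84 merged regions were unevenly divided, with 26 in Pax5, 15 in Pax7, 13 in Pax2, 11 in Pax3, 8 in Pax6, 4 each in Pax8 and Pax9, 3 in Pax1 and none in Pax4. The order partly followed gene length, since Pax5 spans 180.302 kb and Pax4 7.02 kb, where the median coding gene spans 15.4 kb. A total of 36 regions touched an exon and 28 a coding exon. Only 2 of the 84 regions, both in Pax5, held a peak in all 14 samples (2.38%), where 15358 regions of the genome did (10.2%), and 25 held a peak in a single sample.

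Sequences from 5 Pax regions are shown because the results below turn on them. Each is read from NCBIM37 (mm9) on the strand of the gene, 5′ to 3′, over 200 bases, with every CpG in capitals. The first 3 are the middles of regions that had a peak in all 4 Aid+/+ iPS clones and in none of the MEFs, the next is the middle of the region at the start of Pax8 that showed the opposite pattern, and the last is the summit of a Pax5 region found in all 14 samples. Their positions are chr19:44868058-44868257 (plus strand) for Pax2, chr1:78156358-78156557 (minus strand) for Pax3, chr4:139347423-139347622 (minus strand) for Pax7, chr2:24329722-24329921 (minus strand) for Pax8 and chr4:44692295-44692494 (minus strand) for the Pax5 summit.
Pax2 intron: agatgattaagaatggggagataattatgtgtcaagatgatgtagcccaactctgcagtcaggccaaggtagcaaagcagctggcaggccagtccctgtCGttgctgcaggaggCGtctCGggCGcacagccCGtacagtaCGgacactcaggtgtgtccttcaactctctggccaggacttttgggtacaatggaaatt
Pax3 intron: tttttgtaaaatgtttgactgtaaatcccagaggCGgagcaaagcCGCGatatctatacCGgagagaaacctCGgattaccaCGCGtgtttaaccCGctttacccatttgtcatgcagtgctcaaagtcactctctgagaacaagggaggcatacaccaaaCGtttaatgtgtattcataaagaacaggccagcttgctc
Pax7 intron: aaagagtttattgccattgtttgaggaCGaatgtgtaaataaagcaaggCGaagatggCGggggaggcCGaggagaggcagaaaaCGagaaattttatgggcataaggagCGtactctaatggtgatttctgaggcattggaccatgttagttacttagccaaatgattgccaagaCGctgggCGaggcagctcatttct
Pax8 near the start: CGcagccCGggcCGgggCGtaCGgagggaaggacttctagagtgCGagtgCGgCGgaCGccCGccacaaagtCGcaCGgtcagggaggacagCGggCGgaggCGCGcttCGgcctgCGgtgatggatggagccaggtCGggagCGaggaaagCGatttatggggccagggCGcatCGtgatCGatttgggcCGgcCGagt
Pax5 summit in 14 samples: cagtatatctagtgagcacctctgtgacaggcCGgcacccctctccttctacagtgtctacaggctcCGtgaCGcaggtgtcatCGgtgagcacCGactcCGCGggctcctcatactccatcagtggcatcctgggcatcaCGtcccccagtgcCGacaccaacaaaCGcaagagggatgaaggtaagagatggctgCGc
The Pax2, Pax3 and Pax7 stretches held 6, 9 and 8 CpGs, and the Pax5 summit held 11. The Pax8 stretch was of another kind, with 26 CpGs and a GC content of 69%. The 200 bases just before the annotated start of Pax8, chr2:24331120-24331319 on the minus strand, are shown to set the methylated stretch of MEFs beside the promoter itself, which had no peak in any sample.
Pax8 before the start: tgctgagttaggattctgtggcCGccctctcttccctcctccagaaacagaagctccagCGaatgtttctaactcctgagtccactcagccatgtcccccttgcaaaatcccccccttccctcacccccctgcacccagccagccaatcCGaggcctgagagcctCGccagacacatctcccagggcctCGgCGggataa
This upstream sequence held 6 CpGs at a GC content of 60%.

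Promoters of the Pax genes were nearly free of peaks in every group. Over the 9 genes and 14 samples, 2 of 126 pairs of gene and sample had a promoter peak (1.59%), where 5.89% of the pairs over all coding genes did. The 2 peaks were at Pax9 in Aid-/- iPS replicate 4 and at Pax2 in Aid-/- iPS replicate 2. The other 7 Pax genes had no promoter peak in any sample, as had 82.5% of all coding genes, so the absence is common. Pax promoters were richer in CpG than the usual promoter, with a median of 31 CpGs per kb (8 in Pax4 to 50 in Pax2) against 19 over all coding genes. Only that of Pax9 was island-like, 1 of 9 (11.1%), against 15.9% over all coding genes. Island-like here means an observed-to-expected CpG ratio of at least 0.6 and a GC content of at least 50%. The definition of the promoter changed these counts. With 1 kb on both sides of the start, Pax8 had a peak in 6 samples, Pax5 in 4, Pax9 and Pax2 in 2 each, and Pax7 and Pax6 in 1 each. With the kilobase before any annotated transcript start, Pax6, which has 29 such starts, had a peak in 8 samples, Pax8 in 6, Pax5 in 5, Pax2 in 2 and Pax9 in 1.

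The coverage of each window by peaks was then compared between groups, as the percentage of its bases that lay in a peak. Pax1, which acts in the sclerotome and the thymus, had peaks in the iPS clones of both genotypes and in all MEFs. The covered share was 2.98, 1.45, 2.20 and 3.22% in Aid+/+ iPS replicates 1 to 4, and 3.39, 2.06, 2.14 and 2.23% in Aid-/- iPS replicates 1 to 4. The MEFs had 1.92, 2.05 and 1.41%, and of the ES lines only replicate 3 had peaks (4.70%). The groups overlapped in every comparison. Its leading region, by tags summed over samples, was chr2:147191414-147192418, which includes a coding exon. There the 4 Aid+/+ clones had 2.73 ± 1.09 and the 4 Aid-/- clones 4.998 ± 2.03 RPM (SD), that is, tags scaled to the remaining tags of the library, and the region had a peak in 1 of 3 MEFs with 18 tags. This was the most CpG-rich of the leading regions, with 5.77 CpGs per 100 bp.

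Pax9, needed for teeth, palate and thymus, had no peak in any Aid+/+ iPS clone. Among the Aid-/- clones it had 1.00, 1.75, 0 and 3.61% of the window covered in replicates 1 to 4. The only other samples with a peak were ES replicate 3 (2.15%) and MEF replicate 2 (1.75%). Because Aid-/- replicate 3 was also at 0, the genotypes overlapped, and the difference of 1.59 percentage points had an exact two-sided permutation p of 0.143 and an adjusted p of 0.936 over all 17440 genes tested. Each of the 6 peaks was weak. The leading region, chr12:57790701-57791577 in the upstream flank, had 14 and 16 tags in Aid-/- replicates 2 and 4 and no peak elsewhere.

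Pax2, a regulator of kidney and inner ear, was covered in every iPS clone. The share was 2.55, 2.57, 2.39 and 4.56% in Aid+/+ replicates 1 to 4 and 3.75, 4.33, 3.11 and 2.85% in Aid-/- replicates 1 to 4. In MEFs it was 0.519, 1.60 and 0.657%, below every iPS clone. The ES lines had 0.755, 0 and 7.73%, and thus lay on both sides of all other samples. In the leading region, the intronic chr19:44845792-44846824, the Aid+/+ clones had 37, 19, 24 and 31 tags and the Aid-/- clones 30, 54, 24 and 13, whereas 1 MEF had 26 tags and the others no peak. A different region, chr19:44916996-44917863 in the downstream flank, had a peak in all 3 MEFs (19, 24 and 21 tags) but in 3 of 8 iPS clones, so the Pax2 window was not uniformly low in MEFs.

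Pax5, the B cell commitment factor, was the longest gene and held the strongest Pax region. The window share was 3.64, 3.70, 3.26 and 5.43% in Aid+/+ and 3.58, 3.71, 3.29 and 3.14% in Aid-/- replicates 1 to 4. MEFs had 0.947, 1.27 and 0.583%, below every iPS clone, and the ES lines 1.99, 0.358 and 5.32%. The strongest region, chr4:44691864-44692879, covers a coding exon 31924 bp from the start at its summit and is the one whose summit is printed above as found in 14 samples. Its fold enrichment over the local background was 38.7 ± 1.94 in Aid+/+ iPS clones (n = 4), 38.1 ± 5.20 in Aid-/- iPS clones (n = 4) and 21.5 ± 4.32 in MEFs (n = 3). The second region shared by all samples, chr4:44543897-44544775, lies over the last coding exon and the 3′ UTR.

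Pax8, a regulator of thyroid and kidney, was the only member with a region that had a peak in all 3 MEFs and in no Aid+/+ iPS clone. The window share was 0.669, 1.71, 1.191 and 1.81% in Aid+/+ and 2.08, 1.30, 0.736 and 3.27% in Aid-/- replicates 1 to 4. MEFs had 2.32, 2.92 and 1.54% and the ES lines 0, 0 and 4.55%. Over the whole window the groups overlapped. Within the gene there were 2 regions with opposite patterns. The region chr2:24295735-24296750, 34926 bp from the start at its summit, had a peak in all 8 iPS clones with 14 to 44 tags, in MEF replicate 2 with 16 tags and in ES replicate 3 with 36 tags. The region at the start, chr2:24329223-24331026, had no peak in any Aid+/+ iPS clone and 105, 86 and 67 tags in the 3 MEFs. It also had a peak in Aid-/- iPS replicates 1 and 4, with 13 and 50 tags, and in ES replicate 3 with 53 tags, so it did not separate MEFs from all pluripotent samples.

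Pax3, a factor of neural crest and muscle precursors, had the lowest share in MEFs of the long Pax genes. The share was 3.34, 3.63, 3.92 and 5.89% in Aid+/+ and 3.24, 3.81, 3.80 and 2.59% in Aid-/- replicates 1 to 4. MEFs had 0.440, 0.857 and 0%, and the ES lines 1.188, 0 and 4.46%. The leading region, chr1:78128250-78129535 over a coding exon, had 49, 71, 93 and 76 tags in the Aid+/+ clones and 41, 41, 37 and 40 in the Aid-/- clones. Only 1 MEF had a peak there, with 20 tags. In RPM the genotypes overlapped in this region, from 3.08 to 7.89 in Aid+/+ and from 3.49 to 5.56 in Aid-/- clones.

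Pax7, its paralogue that marks muscle stem cells, gave a like picture. The window share was 3.55, 2.74, 2.47 and 2.73% in Aid+/+ and 2.61, 3.57, 2.19 and 2.75% in Aid-/- replicates 1 to 4. MEFs had 1.00, 1.22 and 0.702%, below every iPS clone, and the ES lines 1.23, 0 and 6.001%. The leading region, chr4:139339911-139340977 over a coding exon, had 112, 74, 88 and 69 tags in the Aid+/+ clones and 58, 55, 51 and 45 in the Aid-/- clones. Its MEF values were 24 and 46 tags in replicates 1 and 2 and no peak in replicate 3.

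Pax4, which directs beta cell fate in the pancreas, had no peak in the window in any of the 14 samples, as was the case for 17.9% of coding genes. Pax6, the eye and forebrain regulator, was the least even member. Its share was 3.78, 0, 0.856 and 1.39% in Aid+/+ and 1.59, 1.90, 2.09 and 1.52% in Aid-/- replicates 1 to 4. MEFs had 3.11, 3.45 and 0% and the ES lines 2.31, 0 and 4.04%. No region of Pax6 held a peak in more than 4 samples, and the leading one, chr2:105525597-105526212, was found in Aid+/+ replicates 3 and 4 and Aid-/- replicate 3 only, with 12 to 26 tags. The spread within groups was thus as large as any difference between them. The windows of Pax6, Pax2, Pax5, Pax8, Pax9, Pax1 and Pax4 also overlap other annotated genes, and peaks there cannot be assigned to a single gene.

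**Figure D1:**
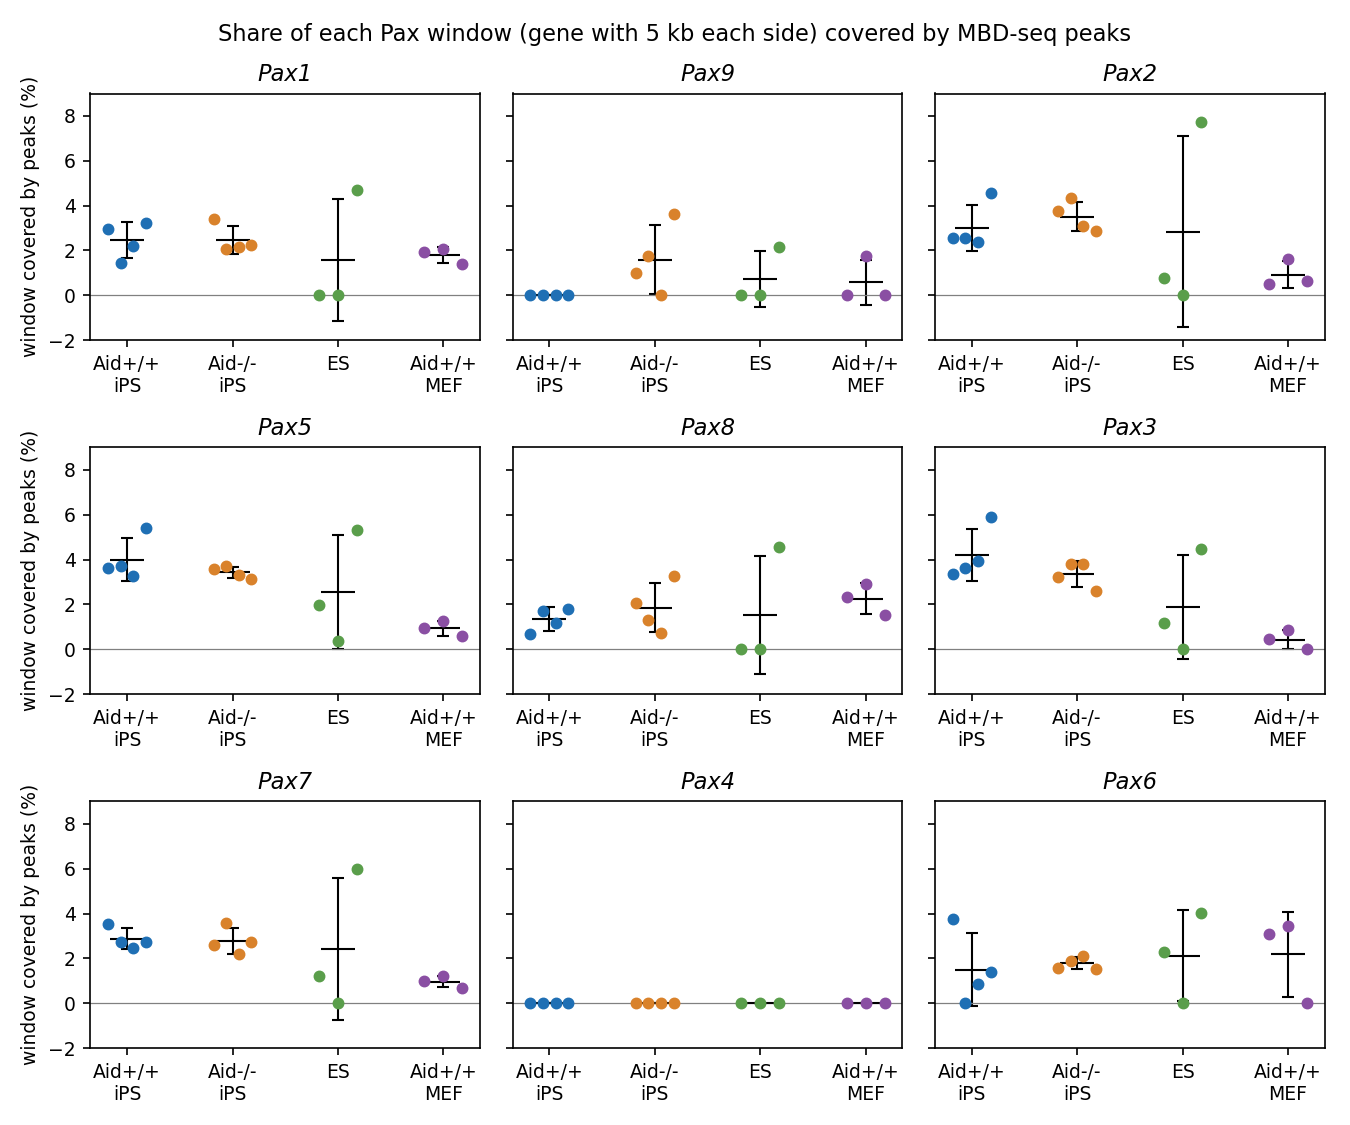
Percentage of each Pax window (gene with 5 kb on each side) covered by peaks, with 1 point per sample and bars for the group mean ± SD (4 Aid+/+ iPS, 4 Aid-/- iPS, 3 ES, 3 Aid+/+ MEF). The 3 MEFs lie below all 8 iPS clones in Pax2, Pax5, Pax3 and Pax7, the genotypes overlap in every panel, and ES replicate 3 is far above the other ES lines.

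The comparison of Aid+/+ and Aid-/- iPS clones addressed the question of the study directly. No Pax gene separated the genotypes. Of the 8 Pax windows tested, 0 had groups that did not overlap, where 2.18% of the 17440 genes tested were separated (0.51% higher and 1.67% lower in Aid-/-). With 4 clones against 4, the exact permutation test cannot give a p below 0.0286, and after Benjamini-Hochberg adjustment 0 of all genes had a value under 0.05, although 381 had an unadjusted p under 0.05. The nearest to a difference among the Pax genes was Pax9, given above. The median difference over the 8 windows was 0.13 percentage points, against -0.36 over all genes.

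The tags in the Pax regions were compared between genotypes as well. In 16 Pax regions all 8 clones had a peak, and edgeR's quasi-likelihood test on their tag counts called 0 of them after adjustment over the 49923 regions tested, where 1 region of the genome was called (0.002%). At an unadjusted p under 0.05 there were 1781 regions in the genome, and DESeq2 called 24, of which 0 were in Pax windows. The largest Pax change was in the leading Pax1 region, where the log2 fold change was 0.90 with a standard error of 0.36 and an adjusted p of 1.00 by edgeR. The strongest Pax5 region changed by -0.10 ± 0.17 (SE), the leading Pax3 region by -0.43 ± 0.25 and the leading Pax7 region by -0.26 ± 0.21 on the log2 scale. By presence and absence, the stretches common to all peaks of the 4 Aid+/+ clones numbered 22 in the Pax windows. None lacked a peak in all 4 Aid-/- clones, and 16 had a peak in all of them, where 82.4% of the stretches of the genome did. Nor did any of the 16 stretches common to the Aid-/- clones lack peaks in the Aid+/+ clones. In the genome 0.416% of the Aid+/+ and 0.108% of the Aid-/- stretches were such differentially methylated regions (DMRs).

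Some alternatives separated the genotypes at single Pax genes. When only peaks with a p of at most 1e-10 were kept, the share of Pax3 fell from 3.26 to 1.97% and that of Pax7 from 2.57 to 2.02% between the group means without overlap, and that of Pax1 went from 1.52 to 2.13%, each with the smallest possible exact permutation p of 0.0286 and an adjusted p of 0.824. Over all genes 0.344% were higher and 2.61% lower without overlap at this peak threshold. Leaving out 1 clone left Pax6 higher in Aid-/- clones without Aid+/+ replicate 1 (1.17% of genes higher), Pax2 without Aid+/+ replicate 4 (2.02%) and Pax9 without Aid-/- replicate 3 (1.89%), with adjusted exact permutation p of 0.364, 1.00 and 0.809. Within the clone series that holds 2 clones of each genotype, Pax9 (0 against 1.00 and 1.75%) and Pax6 (0.856 and 1.39 against 1.59 and 1.90%) were higher and Pax3 (3.92 and 5.89 against 3.24 and 3.81%) lower in Aid-/- clones without overlap, where 6.45% of genes were higher and 45.1% lower. None of these genes passes the adjusted threshold, and no test was made within the series.

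MEFs differed from iPS clones at 4 Pax genes. Against the 8 iPS clones of both genotypes, the window share fell from 3.26 to 0.925% in Pax2, from 3.72 to 0.934% in Pax5, from 3.78 to 0.432% in Pax3 and from 2.83 to 0.973% in Pax7. In each of them all 3 MEFs were below all 8 clones, with an exact two-sided permutation p of 0.00606, the smallest that 8 against 3 can give, and an adjusted p of 0.0357 over the 17747 genes tested. Without regard to a p, 20.6% of genes were lower and 2.65% higher without overlap. By the exact permutation test, 14.8% of genes had a lower call with an adjusted p under 0.05 and 2.15% a higher call. The 4 of 8 Pax windows were thus called where MEFs had less peak coverage across the genome. These 4 are the longest Pax genes, at 82.2 to 180.302 kb. The median coding gene spans 15.4 kb, so the shares over all genes are not of genes of like length. The part of length in the calls was not tested. The median difference was -1.26 percentage points over the 8 Pax windows and -1.24 over all genes. The calls stand in the same direction as the lower number of peaks in the MEF libraries, whose part in them was not tested. Against the 4 Aid+/+ clones alone the same 4 genes did not overlap with MEFs (exact permutation p = 0.0286, adjusted p = 0.150), where 31.6% of genes were lower and 4.65% higher without overlap and 0 passed the adjusted threshold.

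The scale on which the samples were compared changed these calls. In RPM summed over the window, the 4 genes kept their calls and Pax1 gained one (adjusted exact permutation p = 0.0496), where 54.8% of genes were called lower and 6.31% higher. With peaks at p of at most 1e-10, Pax2 lost its call (0.0692) and the other 3 kept theirs, where 22.2% of genes were called lower and 4.60% higher. When every sample was reduced to its 33082 strongest peaks, the number in the smallest library, Pax2 turned to 0.0834 percentage points higher in MEFs with overlapping groups. Pax3, Pax5 and Pax7 stayed lower, by 0.679, 0.321 and 0.559 percentage points, but their adjusted exact permutation p became 0.349, 0.0780 and 0.123. Over all genes the balance of the genes without overlap then turned to 2122 higher and 583 lower of 13460 tested (15.8 and 4.33%). By the adjusted exact permutation test 14.7% of genes were called higher and 3.36% lower. Pax8 passed the threshold on this scale, at 0.141% in the iPS clones and 1.68% in MEFs with an adjusted exact permutation p of 0.0336. When the share was divided by that of the genome in the same sample, Pax2, Pax3 and Pax5 kept their calls, Pax7 had an adjusted p of 0.0738 and Pax8 was higher in MEFs with an adjusted p of 0.0467 by the exact permutation test, where 11.1% of genes were called lower and 14.8% higher. Leaving out any 1 MEF took the 4 calls above the threshold. The adjusted exact permutation p was 0.116, 0.0785 and 0.126 without replicates 1, 2 and 3. The groups still did not overlap, which was certain, since removing a sample cannot make them overlap. Fewer samples also raise the smallest p that this test can give. The calls were also lost, narrowly, without Aid+/+ replicate 2 or 3 or Aid-/- replicate 1 or 3 (adjusted exact permutation p = 0.0510, 0.0522, 0.0501 and 0.0527). In each of these settings with 1 sample left out, 0 genes of the genome passed the adjusted threshold. The loss was therefore not particular to the Pax genes. Of the libraries with the 1 form of run name that both cell types share, MEF replicate 1 was below Aid-/- iPS replicate 3 in all 4 genes. In Pax3 it was at 0.440 against 3.80%. That order was also certain, since in these 4 genes every MEF lay below every iPS clone. With 1 library against 1, it is no check on the calls, and the part of the form of run name in them was not tested.

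**Figure D2:**
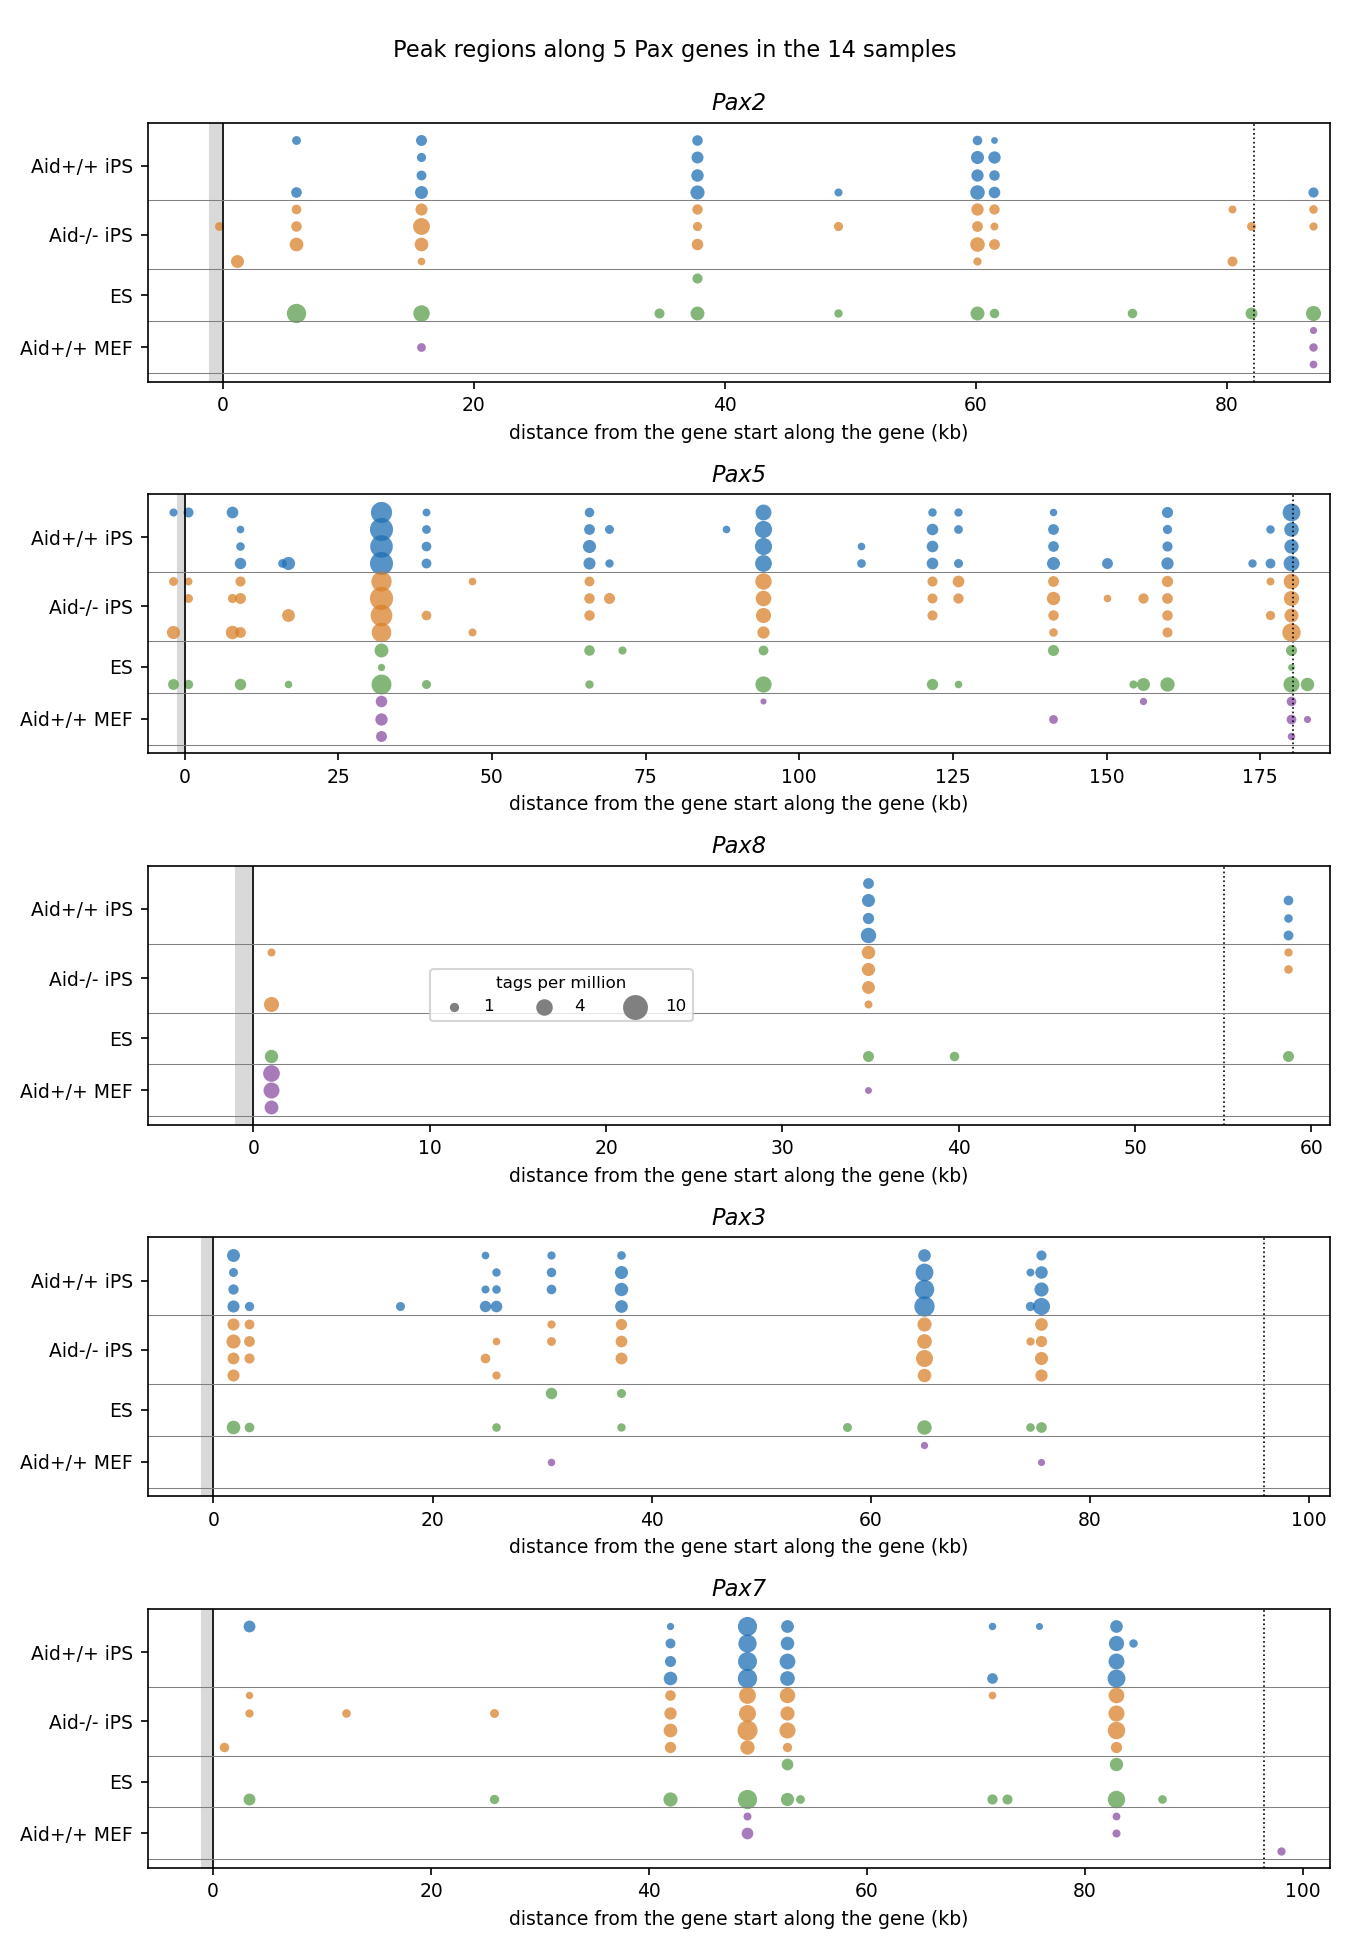
Peak regions along 5 Pax genes, with distance from the gene start in kb on the horizontal axis (grey band, promoter; dotted line, gene end) and 1 line of points per sample, the point area giving RPM. MEFs lack most of the intragenic regions that recur across iPS clones in Pax2, Pax5, Pax3 and Pax7, and all 3 MEFs have a region at the start of Pax8 that no Aid+/+ iPS clone has.

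The presence and absence of peaks located these differences. Of the 22 stretches common to the Aid+/+ iPS clones in Pax windows, 11 had no peak in any MEF, where 28% of such stretches in the genome did, and 2 had a peak in all MEFs, where 38.8% of the stretches of the genome did. The 11 lay in Pax5 (4), Pax2 (3), Pax3 (2) and Pax7 (2), and 4 of them, in 4 different genes, touched a coding exon. Of the 11, 10 are given here. By fold enrichment the leading ones among these were the intronic Pax2 stretch chr19:44867947-44868368, with 34, 32, 38 and 37 tags in Aid+/+ replicates 1 to 4 and a fold enrichment of 25.01 ± 3.58 (SD, n = 4), and the intronic Pax3 stretch chr1:78156240-78156674, with 23, 38, 44 and 30 tags and 23.2 ± 8.25-fold enrichment. Both are printed above. Among the coding exon stretches were chr19:44890368-44890785 in Pax2 (18.6 ± 2.18-fold), chr1:78191690-78192116 in Pax3 (14.2 ± 4.43-fold) and chr4:139336543-139336943 in Pax7, which had the most tags of the 10 (50, 41, 61 and 40) at 13.5 ± 2.07-fold. A further 5, chr19:44891918-44892268 in Pax2, chr4:44564190-44564700, chr4:44602536-44602860 and chr4:44684851-44685150 in Pax5 and chr4:139347322-139347723 in Pax7 (printed above), touched no exon and had mean enrichments of 13.6 to 19.3-fold. None of the 11 lay in a promoter. Over the gene bodies alone, Pax2, Pax5, Pax3 and Pax7 were again below all iPS clones (30.7% of gene bodies against the Aid+/+ clones and 19.8% against both genotypes), and the Pax2 body went from 3.20 ± 0.800% in Aid+/+ clones to 0.307 ± 0.532% in MEFs (SD, n = 4 and 3).

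In the other direction 2 of the 5 stretches common to the MEFs in Pax windows had no peak in any Aid+/+ iPS clone, where 6.55% of such stretches in the genome did. Both were at the start of Pax8. The first, chr2:24329580-24330062, had its middle 1.30 kb inside the gene in an annotated non-coding exon, with 49, 59 and 45 tags in MEF replicates 1 to 3 and an enrichment of 16.1 ± 2.60-fold (SD, n = 3). The second, chr2:24330350-24330870, was 0.509 kb inside over coding and untranslated exon sequence, with 56, 27 and 22 tags and 11.4 ± 4.85-fold enrichment. The nearest peak of any Aid+/+ iPS clone was 14087 and 13279 bp away. Over the body of Pax8 the share was 0.938 ± 0.265% in Aid+/+ clones and 2.67 ± 0.815% in MEFs without overlap (exact permutation p = 0.0286, adjusted p = 0.151), where 4.8% of gene bodies were higher in MEFs without overlap. Against the iPS clones of both genotypes the Pax8 body overlapped, where 2.91% of gene bodies were higher without overlap. The Aid-/- clones 1 and 4 and ES replicate 3 had a peak here, as given above, so the absence held for the Aid+/+ clones but not for iPS cells in general.

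Only the 2 Pax5 regions with a peak in every sample could be tested for their tags. At chr4:44691946-44692879 the RPM fell from 9.70 ± 0.755 in Aid+/+ iPS clones to 2.59 ± 0.305 in MEFs (SD). With TMM scaling, which sets most regions at no change, the log2 change was -0.64 with a standard error of 0.21 and an adjusted p of 0.0245 by edgeR over 22987 regions, of which 23.7% were called higher and 19.6% lower. With the library sizes of the headers instead, the median of all regions was -1.30 and the Pax5 region -1.90, again below the median. Against both genotypes and with TMM it was -0.59 with a standard error of 0.18 and an adjusted p of 0.0122 by edgeR, where 24.7% of regions were called higher and 26.6% lower, and this call was lost with the length of the peaks taken into account (adjusted p = 0.289) and without MEF replicate 1 (0.0802) or 3 (0.0770). Against the Aid+/+ clones the call was lost when the length of the peaks was taken into account (-0.43, adjusted p = 0.243 by edgeR), and without MEF replicate 1, 2 or 3 or Aid+/+ replicate 3 in turn it had adjusted p of 0.102, 0.0588, 0.0885 and 0.0523. At the 3′ end, chr4:44543949-44544775, the log2 change was -0.34 with a standard error of 0.28 and an adjusted p of 0.329 by edgeR.

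**Figure D3:**
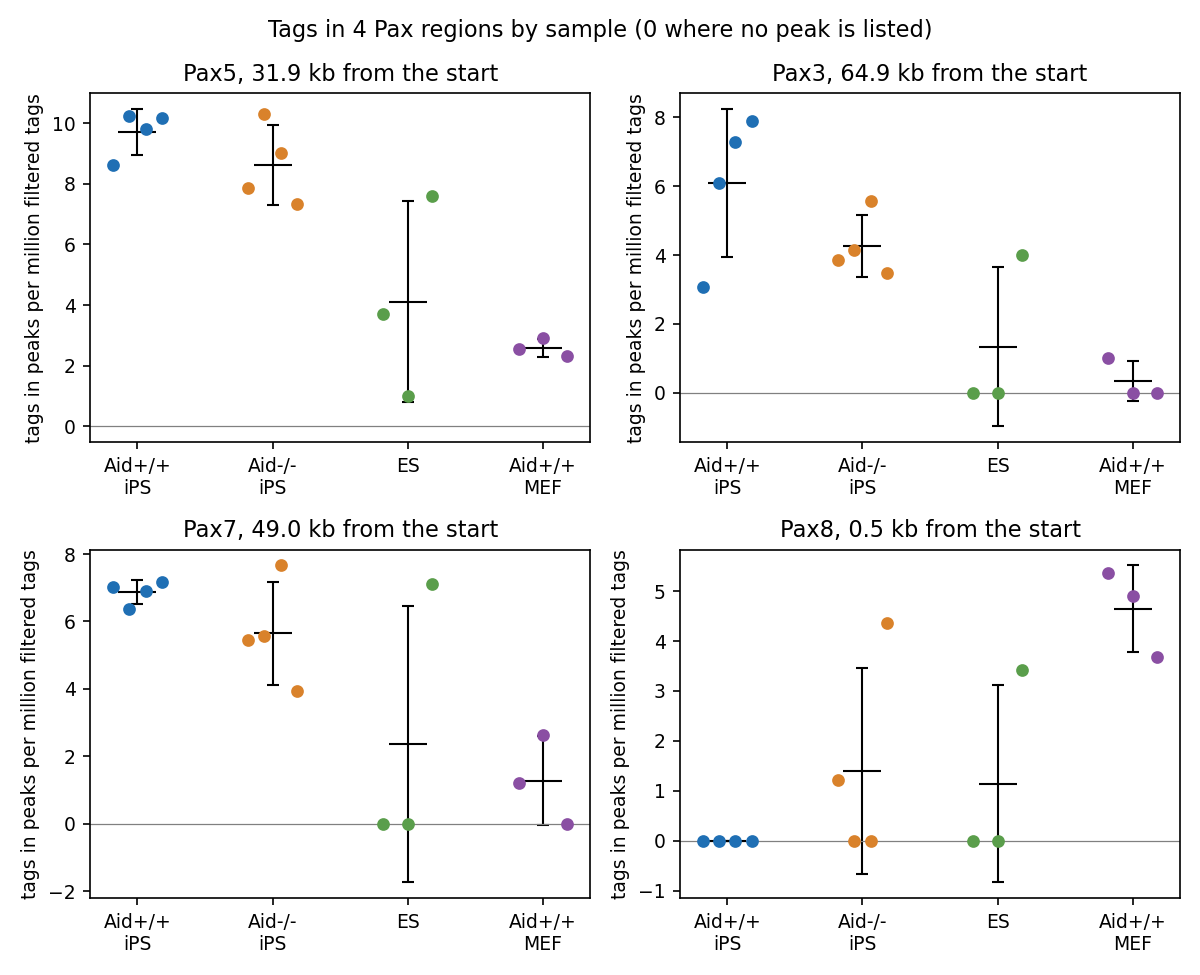
Tags in peaks (RPM) in 4 Pax regions, with 1 point per sample, 0 where no peak is listed, and bars for the group mean ± SD (n = 4, 4, 3 and 3). MEFs have the lowest mean in the Pax5, Pax3 and Pax7 regions and the highest in the region at the start of Pax8.

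ES cells could not be told from Aid+/+ iPS clones at the Pax genes, and the 3 lines differed widely. The number of peaks in Pax windows was 13 in RF8, 2 in MG1.19 and 53 in the C57BL6 line, against 30 to 43 in the Aid+/+ clones. The mean share over the 9 windows was 0.830, 0.0398 and 4.33%, with 2.15, 1.18 and 4.03% of the genome covered in the same libraries. Strain and library cannot be told apart here. Of the 8 windows tested, 0 were without overlap, where 3.41% of 17760 genes were (0.163% higher and 3.24% lower). By the exact permutation test 0 genes passed the adjusted threshold and 418 had an unadjusted p under 0.05. The smallest adjusted p among the Pax genes was 0.780 in the exact permutation test, and in edgeR the strongest Pax5 region changed by -0.71 ± 0.36 (SE) on the log2 scale with an adjusted p of 0.546, where 0.0168% of 23779 regions were called (0.0126% higher and 0.00421% lower in ES lines). No Pax stretch was a DMR, where 1.96% of the Aid+/+ iPS and 0.184% of the ES stretches of the genome were, and 2 of the 22 stretches of the Aid+/+ clones had a peak in all ES lines, where 40.2% of those of the genome did. Without ES replicate 3, 6 Pax genes had lower shares in the other 2 lines without overlap, where 44.1% of all genes did, and 13 of the 22 Pax stretches became DMRs of the Aid+/+ clones, where 29.1% of those of the genome did.

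The family moved with the library as a whole. Across the 14 samples the mean share of the 9 windows had a Pearson r of 0.832 with the share of the genome covered by peaks, a description of libraries that also differ in cell type and depth. The 5 coding genes whose windows followed the family mean most closely over these 14 samples, among 14968 genes with a peak in at least 7 samples, were Trim58 (r = 0.962), Prpsap1 (0.955), Ccdc88c (0.951), Wt1 (0.949) and Rhoh (0.949). Their own r with the coverage of the genome was 0.771 to 0.889.

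CpG-dense sequence was more frequent among the Pax regions than among all regions. The median was 2.42 CpGs per 100 bp over the 84 Pax regions and 2.22 over all merged regions, but 16 Pax regions (19.05%) exceeded 5 per 100 bp, where 2.25% of all regions did. The limit of 5 was chosen after the values had been seen. Peaks in these 16 regions were found in 5, 1, 1 and 1 of them in Aid+/+ replicates 1 to 4 and in 7, 6, 1 and 10 in Aid-/- replicates 1 to 4. The ES lines had 1, 0 and 3, and each MEF had 1. The genotypes overlapped, with 5 in Aid+/+ replicate 1 and 1 in Aid-/- replicate 3, and the cause of the high values was not tested.

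The 4 iPS libraries with the high values share 1 form of run name in the headers of their files, and the other 4 have different forms. Over all CpG-dense regions of the genome the same 4 libraries had a peak in 43.5% (Aid+/+ replicate 1), 42.5, 35.3 and 67.2% (Aid-/- replicates 1, 2 and 4), and the other 4 in 6.24 to 9.15%. What the run names stand for is not given in the sources used here, and its part in the result was not tested. In the other 68 Pax regions the pattern was not seen, with a peak in 31, 31, 29 and 42 of them in Aid+/+ and in 32, 38, 28 and 18 in Aid-/- replicates 1 to 4. The Pax9 peaks of the Aid-/- clones, both promoter peaks of the family and the Pax8 start peaks of Aid-/- replicates 1 and 4 were all in libraries of this run name. Within it, Pax9 was at 0 in the single Aid+/+ clone and at 1.00 to 3.61% in the 3 Aid-/- clones.

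**Figure D4:**
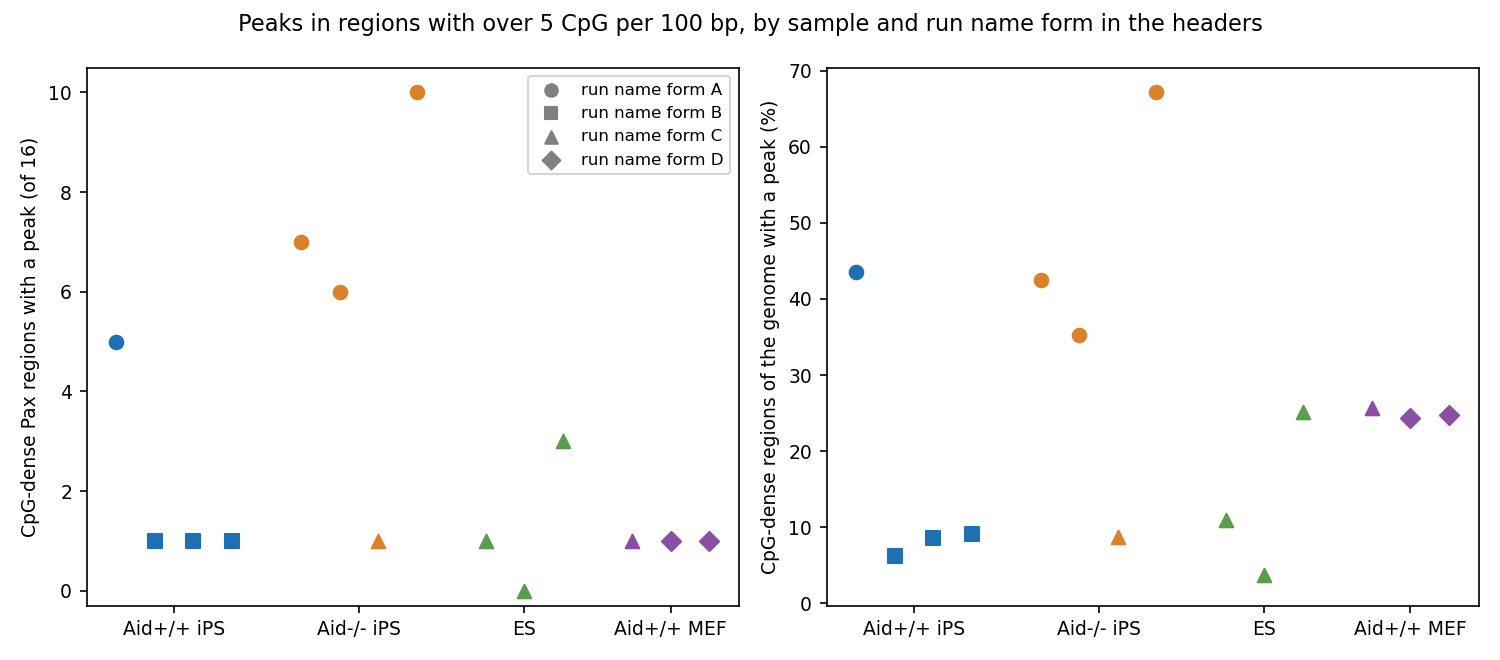
Peaks in CpG-dense regions (over 5 CpGs per 100 bp) by sample, as the number of the 16 Pax regions (left) and the percentage of all such regions of the genome (right), with the marker shape giving the form of run name in the file headers. The 4 iPS libraries of form A (Aid+/+ replicate 1 and Aid-/- replicates 1, 2 and 4) lie above the other 4 iPS libraries in both panels.

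**Figure D5:**
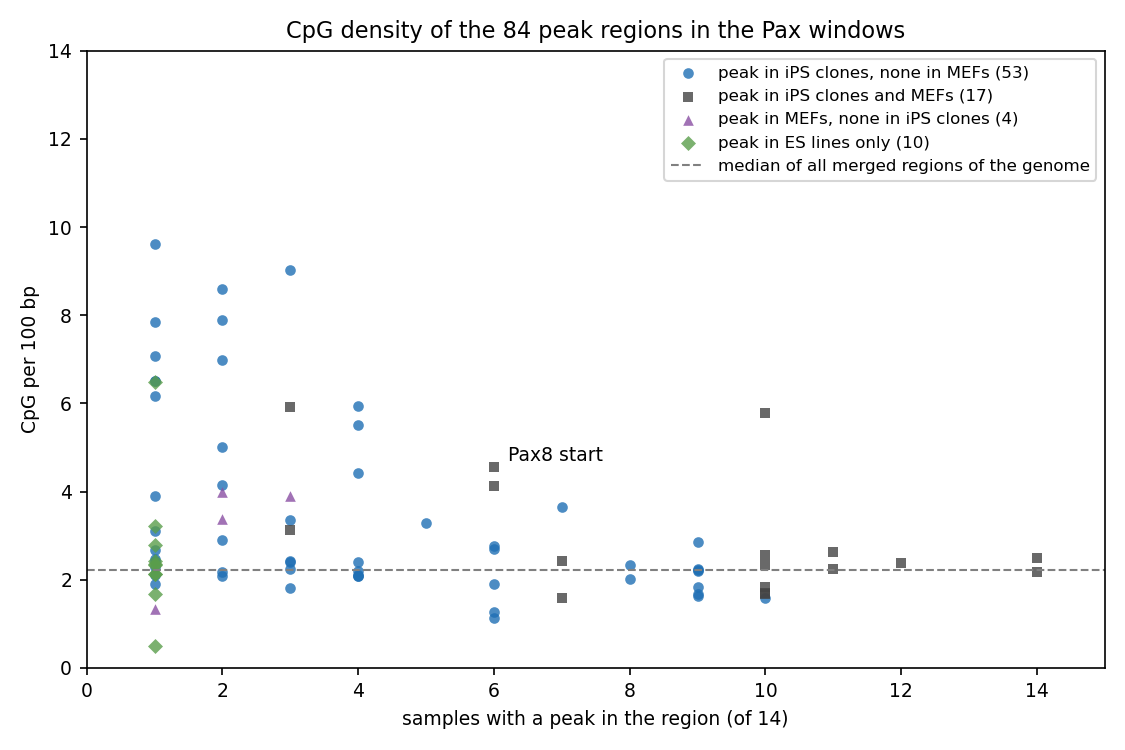
CpG density of the 84 Pax regions (CpGs per 100 bp, vertical) against the number of samples with a peak (horizontal), marked by where the peaks were found. Regions above 5 CpGs per 100 bp mostly have a peak in at most 4 samples, the exception being the leading Pax1 region in 10, and the region at the start of Pax8 has 4.55.

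By where peaks were found, 53 Pax regions had a peak in iPS clones but in no MEF, and 17 in both. Another 4 had a peak in MEFs but in no iPS clone, and 10 in ES lines alone. The same shares over all regions are not given here. The MEF libraries had fewer peaks than any iPS clone, so these counts are not read as particular to Pax. Most Pax regions with a peak in many samples were of ordinary density, with a median of 2.21 CpGs per 100 bp in the 19 regions found in 9 to 14 samples.

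Partners and targets of Pax proteins were examined as a list of 32 genes, chosen with knowledge of the field and of earlier results of these data. Between genotypes 0 of 29 tested were without overlap. Against the 8 iPS clones, MEFs were called higher at Sox9, a chondrogenic factor (2.83 ± 1.84 to 6.97 ± 0.755%), and lower at the kidney receptor gene Ret (6.57 ± 0.948 to 2.67 ± 0.572%) and at Dach1 (0.575 ± 0.197 to 0.159 ± 0.0418%), each with an adjusted exact permutation p of 0.0357. These are 1 higher and 2 lower of 29, where 2.15% of all genes were called higher and 14.8% lower. The other 26 tested did not pass, and the median difference was -0.74 percentage points over the list and -1.24 over all genes. Myod1 resembled Pax9 in that no Aid+/+ iPS clone had a peak and Aid-/- replicates 1, 2 and 4 had 4.56, 7.54 and 8.07%. It was chosen for mention after its values had been seen, and the adjusted exact permutation p was 0.936.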

How the data were processed

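MBD-seq had been run on 14 samples by the authors, who mapped the reads to mm9 with BWA 0.5.9rc1 and called peaks in each sample alone, without a control library, with MACS 1.4.1 (1.4.0rc2 for 5 samples, per the file headers) at a p-value cutoff of 1e-05. The deposited peak lists give, per peak, the tag count (a raw count, at most 2 tags per position), the −log10 p-value (times 10) and the fold enrichment ratio over the local background of the same sample. CASAVA 1.8.1 is also named in the submitters' processing notes.

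Genes were taken from GENCODE vM1 on NCBIM37, the same build. Covered shares of windows, bodies and promoters were compared by exact two-sided permutation of the difference of means, with Benjamini-Hochberg adjustment over all coding genes with a peak. Tag counts were tested with edgeR 4.0.16 (quasi-likelihood, TMM) in merged regions with a peak of every sample compared, although tags were counted over peaks of unequal length. DMRs followed the study's rule of presence in all samples of one group and absence from the other. DESeq2 1.42.0, limma 3.58.1, stricter peaks, equal peak numbers, other scalings and leaving out each sample were alternatives. The covered bases, merged regions, DMR rule, permutation test and edgeR test were tried on simulated data. DESeq2, limma, the other scalings, Dixon's test and the correlations were not. The 9 genes are named whatever their values, with every Pax DMR but 1 and the region with most tags per gene; members and lists were chosen with earlier results of these data known. The p-values measure only the spread between these clones and cultures, which may be technical in part. Some items, that DMR among them, are not reported here.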

Additional observations from a re-analysis of the deposited data

Results flagged for a closer look

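In the covered share of the Pax1 window, Aid-/- iPS replicate 1 stood apart from its group at 3.39%, where the other 3 clones were at 2.06 to 2.23%. In that of the Pax2 window, Aid+/+ iPS replicate 4 stood apart at 4.56%, where the others were at 2.39 to 2.57%. Both gaps, divided by the range of the group (0.869 and 0.920), passed Dixon's critical value for 4 samples. A total of 19 groups of 4 were examined, and chance alone passes about 1 in 20. Aid+/+ replicate 4 was also the library with the most peaks (109417).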

How the results depend on the processing

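Counts of genes without overlap were 381 between genotypes, 605 for ES lines, 6322 for MEFs against Aid+/+ clones and 4123 for MEFs against both genotypes. With 1 sample left out they ranged from 585 to 2270 (2270 without Aid+/+ replicate 1), 689 to 7727 (7727 without ES replicate 3), 6633 to 9316 and 4185 to 6822. Reducing every sample to the same number of peaks gave 3741 and 2705 for the MEF comparisons, and RPM gave 11354 and 9883, with 1329 for ES lines, where shares relative to the genome gave 1192. Regions called by edgeR between genotypes (1) became 12 with the library size of the headers, 3 with at least 20 tags, 24 with DESeq2, and 0 with peak length as offset, with limma on fold enrichment and with the clone series as a block, and 0 to 66 with 1 clone left out (66 without Aid+/+ replicate 1). For ES lines 4 regions became 0, 1, 319, 7 and 0 under the header size, 20 tags, DESeq2, peak length and limma, and 0 to 2449 with 1 sample left out (2449 without ES replicate 3). For MEFs the header size gave 19431 against 9955, and 19752 against 11529, and peak length gave 6575; left-out samples gave 7390 to 12001 and 9004 to 12182. The header size moved the median log2 change of all regions between Aid+/+ iPS clones and MEFs to -1.30 (-0.67 for ES lines). Pax DMRs were 0 to 1 between genotypes, 0 to 13 for ES lines (1 with peaks at p of at most 1e-10) and 14 to 17 for MEFs, against 13. Among the called values, the sign reversed for Pax2 with equal peak numbers (0.0867 against Aid+/+ and 0.0834 against both genotypes) and, for Pax1, called in RPM alone, relative to the genome (0.122 against both). The causes were not tested. No paired analysis was possible because replicate numbers are accession order and pair no samples, and the block used was the clone series.

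Of 24 Pax comparisons with overlapping groups, 14 changed sign under an alternative and 2 came to an adjusted p under 0.05. Limits are few samples, peak lists that name only what passed the threshold, and libraries whose number of peaks differs with cell type.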
